A study of Mus musculus with 10 samples.

Results

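DNA methylation of 10 genes that carry arsenic into, through and out of the cell was read in mouse embryos. They are Aqp3, Aqp7, Aqp9 and Slc2a1 for uptake, Abcc1 and Abcc2 for efflux, and As3mt, Gsto1, Gstp1 and Pnp for biotransformation. They were taken by name, with no methylation value in the rule, out of 20665 autosomal protein-coding genes of the RefSeq gene table for GRCm38, of which 17575 had a measured position. Each gene was divided into its 2 ends, taken as 2000 bp on each side of the end, and the body between them, and the methylation level is the sum of methylated calls over the sum of coverage in such a window. All 10 genes had measured positions, 654 in all, but 6 of their 20 ends had none, namely the 5' ends of Aqp9 and As3mt, the 3' ends of Aqp3, Gstp1 and Pnp, and the lower-coordinate end of Abcc1.

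Inorganic arsenic enters cells as arsenite through aquaglyceroporins, which are glycerol and water channels, and through glucose carriers. Inside the cell, arsenate is reduced to arsenite, arsenite is bound to glutathione or methylated, and the products leave through pumps of the multidrug resistance protein family. Methylation of CpG-rich promoters is a mark commonly found at silenced genes, while the bodies of genes are usually methylated in mammalian cells.

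The series holds DNA of mouse embryos at embryonic day 7.5, in 5 samples titled arsenic and 5 titled control, and its stated aim is to compare their methylation. Reduced representation bisulfite sequencing was used, which reads the methylation of cytosines in the CpG-rich fraction of the genome. Strain, dose, route and time of exposure and pooling of embryos are not given in the sources, and nothing says whether samples came from separate litters. The table carries 10 sets of counts numbered 1 to 10, and none of these numbers points to 1 sample title only, so no arsenic sample could be set against a control sample.

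Values are therefore given over the 10 sets, called columns, as the lowest, the median and the highest, and any difference between arsenic and control embryos lies inside those ranges without being visible. Column 3 had the lowest summed coverage, 73509810, and column 1 the highest, 127743823. Member positions had a median of 26 to 48 reads, depending on the column. The mean autosomal level ranged from 40.1% to 42.7%. At a single position, an intermediate level in whole embryos can come from a mixture of cells, of alleles or of both. These cannot be told apart in these counts. An intermediate level of a window can also come from summing positions of unlike level. The columns of such a window can then also differ by how their calls divide among those positions.

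The promoter sequences that the results turn on are those of Slc2a1, Gsto1 and Gstp1, in which measured CpGs lie, and those of Aqp3 and Abcc2, in which none was measured. They are the 250 bases before the start of the gene, from RefSeq, build GRCm38.p6, written 5' to 3' on the strand of the gene, with measured CpGs in capitals. The Slc2a1 stretch is chr4:119108495-119108744 on the plus strand, with 13 CpGs, all of them measured.
Slc2a1: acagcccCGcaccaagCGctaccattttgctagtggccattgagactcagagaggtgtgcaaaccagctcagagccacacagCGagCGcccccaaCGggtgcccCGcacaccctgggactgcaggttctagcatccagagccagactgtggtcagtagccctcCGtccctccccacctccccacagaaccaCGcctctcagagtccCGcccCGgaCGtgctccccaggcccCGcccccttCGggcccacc
The Gsto1 stretch is chr19:47854723-47854972 on the plus strand, with 5 of 12 CpGs measured.
Gsto1: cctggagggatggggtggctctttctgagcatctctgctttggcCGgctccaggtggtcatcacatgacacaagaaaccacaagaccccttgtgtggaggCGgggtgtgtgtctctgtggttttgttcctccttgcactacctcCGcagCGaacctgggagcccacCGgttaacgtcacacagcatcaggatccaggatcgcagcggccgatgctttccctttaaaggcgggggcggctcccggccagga
The Gstp1 stretch is chr19:4037913-4038162 on the minus strand, with 4 of 18 CpGs measured, all near the gene start.
Gstp1: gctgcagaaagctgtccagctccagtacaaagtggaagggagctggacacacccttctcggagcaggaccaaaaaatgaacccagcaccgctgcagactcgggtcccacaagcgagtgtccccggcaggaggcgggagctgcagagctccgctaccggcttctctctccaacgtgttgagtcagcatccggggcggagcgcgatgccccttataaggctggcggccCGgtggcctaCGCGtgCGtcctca
The Aqp3 stretch is chr4:41098184-41098433 on the minus strand, with 14 CpGs, none measured.
Aqp3: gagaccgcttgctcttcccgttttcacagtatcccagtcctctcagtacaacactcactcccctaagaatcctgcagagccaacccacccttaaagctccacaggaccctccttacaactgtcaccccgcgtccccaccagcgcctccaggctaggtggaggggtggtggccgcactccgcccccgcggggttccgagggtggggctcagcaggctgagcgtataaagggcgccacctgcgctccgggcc
The Abcc2 stretch is chr19:43782058-43782307 on the plus strand, with a single CpG, not measured.
Abcc2: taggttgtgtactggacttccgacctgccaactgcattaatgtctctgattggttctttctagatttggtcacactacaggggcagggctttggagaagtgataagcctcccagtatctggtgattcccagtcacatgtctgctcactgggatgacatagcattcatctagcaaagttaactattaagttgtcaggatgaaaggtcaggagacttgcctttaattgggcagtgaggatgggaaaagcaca

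Whether a promoter was measured went with the letters CCGG, which read the same on both strands and each hold a CG. Extended by 50 bases into the gene, 11 promoters of 9 members were listed, 2 each for Aqp7 and Aqp9 and none for Abcc1, and 6 of them held CCGG. Among the 16457 protein-coding genes with a promoter in the table, 63.2% held CCGG. A position was measured in 66.3% of promoters with CCGG and in 0.827% of those without. The promoters of Aqp3, As3mt and Pnp held CCGG and had no measured position, and those of Aqp7, Aqp9 and Abcc2 did not hold it.

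**Figure D1:**
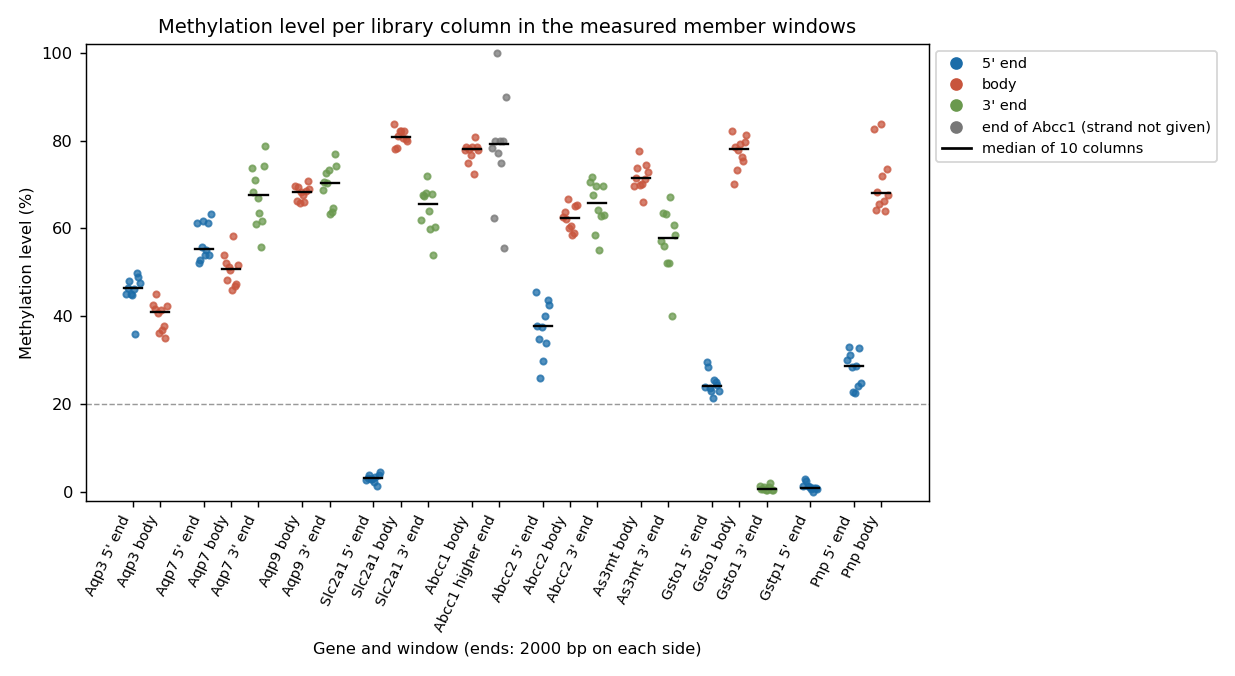
Methylation level (%) of each member window that held positions, with a point for each of the 10 columns a short line for their median and a dashed line at 20%. Points of Gstp1 and Slc2a1 at the 5' end and of Gsto1 at the 3' end lie below 5%, and those of all bodies lie above 35%.

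Among the uptake genes with a measured 5' end, only Slc2a1 had a level under 20% there, where 73.8% of all protein-coding 5' ends were. Its positions reached to 10 bp from the start, while the nearest ones of Aqp3 and Aqp7 lay 708 and 490 bp before theirs. Like stretches of these genes were therefore not compared. Slc2a1 encodes the glucose carrier GLUT1, which also carries arsenite, and lies at chr4:119108745-119137330 on the plus strand. The level of its 5' end was 1.33% in the lowest column, 3.10% in the median and 4.49% in the highest, over 125 positions and 48856 calls, and each of the 125 positions was under 20%. From 258 bp before the start to 988 bp inside, 106 positions had a summed level of 1.44%, with columns between 0.746% and 2.31%. The next 19 positions, 1083 to 1307 bp inside, had 8.64%, with columns between 4.04% and 12.7%. The columns of both stretches did not overlap, but the division between them was set after levels were seen. Of the positions before the start, 18 also lie in the long non-coding gene Gm52706, which runs up to the start of Slc2a1.

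Positions deeper in Slc2a1 had higher levels. The body had 78.2% in the lowest column, 80.8% in the median and 83.7% in the highest, over 18 positions, and its summed level of 81.1% was higher than that of 90.1% of all protein-coding bodies. That level came mostly from 16 positions 24156 to 24503 bp inside, which had 86.7%, while 2 positions 6392 and 6505 bp inside had 60.2%. It fell to 46.0% with ends of 1000 bp and to 41.1% with ends of 500 bp, which place low positions near the start in the body. The 3' end ranged from 54.0% over a median of 65.7% to 72.0%, which joined unlike stretches. Before the end of the gene, 21 positions from 1117 to 768 bp had 75.8% and 6 positions from 467 to 382 bp had 74.7%, whereas 7 positions from 748 to 910 bp beyond the end had 18.7%, with column 5 at 42.5% and the other columns between 11.3% and 22.5%. At 1 CpG of the 3' end the strands were far apart, with 90.8% at position 119136213 on the plus strand and 9.22% at position 119136214 on the minus strand. This was the only one of 231 member CpGs read on both strands whose strands differed by more than 40 percentage points, and the median difference was 1.47 points. Sums over 1 strand still differed in some windows. Not every member CpG was read on both strands, so such sums can cover different CpGs, with unlike numbers of calls. The Slc2a1 3' end had 48.8% on the plus and 75.4% on the minus strand, and the Aqp3 5' end 31.3% and 48.2%. On 1 strand alone, 4 of 22 windows (plus) and 3 of 21 (minus) moved by at least the standard deviation of their columns.

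Aqp3, an aquaglyceroporin of epithelia, lies at chr4:41092724-41098183 on the minus strand and had intermediate levels in both windows with positions. Its 5' end had 36.1% in the lowest column, 46.4% in the median and 49.9% in the highest, over 15 positions. Column 7 alone was low there, since the next lowest column had 44.9%. No position lay closer than 708 bp before the start or 1875 bp inside the gene, so the CpG-rich promoter printed above was not part of this value. The 10 positions before the start had 48.8% together, but they differed strongly among themselves. The farthest, 1136 bp before the start, had 80.9% with columns between 75.7% and 87.5%, and the nearest, 708 bp before the start, had 2.74% with columns between 0% and 7.14%. The change with distance was not steady, since 19.1% was read 846 bp and 69.2% was read 773 bp before the start. Inside the gene, 31 positions from 1875 to 2701 bp had 38.9%, and the body window had 35.1% in the lowest column, 41.1% in the median and 45.1% in the highest. Its summed level of 40.1% was the lowest of the 9 member bodies, and 13.9% of all protein-coding bodies were lower.

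Aqp7, the aquaglyceroporin known for glycerol release from fat cells, lies close by on the same strand, at chr4:41033074-41048237. Its 5' end had the highest level of the 7 member 5' ends, with 52.0% in the lowest column, 55.4% in the median and 63.4% in the highest over 24 positions. The level summed over columns, 57.5%, was higher than in 91.9% of all protein-coding 5' ends. Among genes with 0 to 4 CG in the promoter, to which Aqp7 belongs, it lay between the quartiles. Their 5' ends had a median of 48.8%, with quartiles of 26.3% and 60.1%. Before the start, 6 positions from 895 to 490 bp had 52.4%, and inside, 18 positions from 1394 to 1991 bp had 58.0%. The body ranged from 45.9% over a median of 50.8% to 58.3%. A single position 10143 bp inside, with 2349 calls, had 24.4%, with columns between 18.3% and 30.4%, while 3 positions 10453 to 10695 bp inside had 58.1%. The 3' end had only 3 positions, with 55.8% in the lowest column, 67.7% in the median and 78.8% in the highest.

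Aqp9, the aquaglyceroporin of liver and a well-studied arsenite channel, lies at chr9:71110659-71167849 on the minus strand. Its 5' end, taken at the edge of the gene interval, had no position. Both of its listed promoters lie inside the interval, and no position was closer than 934 bp to the start they give. The nearest, position 71161699, lay 1590 and 934 bp from these starts and had 61.3%. Positions 71161380 and 71161387 had 55.8% together. A window of the same width at either listed start would have held these positions, which were counted in the body. In the body, 44 positions had 65.7% in the lowest column, 68.3% in the median and 70.8% in the highest. The 3' end, with 20 positions, ranged from 63.3% over a median of 70.5% to 76.9%. All 8 groups of neighbouring Aqp9 positions lay between 55.8% and 79.0%, and 14 of the body positions also fall in the long non-coding gene Gm32714.

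**Figure D2:**
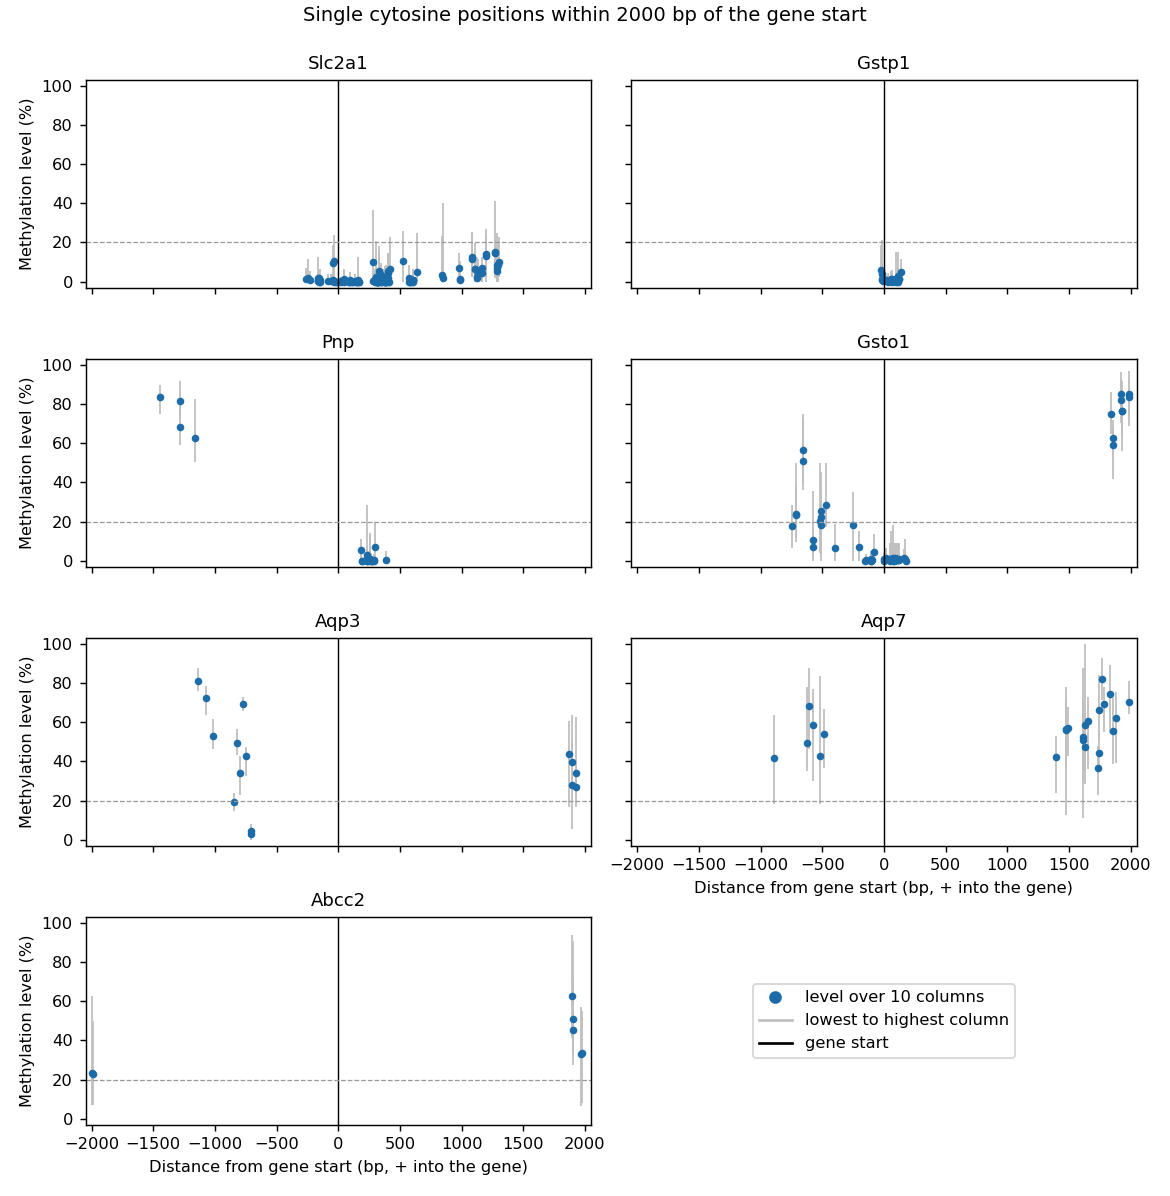
Methylation level (%) of single positions, summed over the 10 columns, against distance (bp) from the gene start for the members with positions at the 5' end, with bars from the lowest to the highest column and a dashed line at 20%. Slc2a1, Gsto1, Gstp1 and Pnp have positions near 0% close to the start, while Aqp7 and Abcc2 have none under 20% in this window.

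The efflux genes had methylated bodies and few positions near their starts. Abcc2 encodes the pump MRP2 and lies at chr19:43782308-43838332 on the plus strand. Its 5' end had 26.1% in the lowest column, 37.8% in the median and 45.6% in the highest, over 7 positions and 1761 calls. None of these positions was near the start. A pair of positions 1996 and 1993 bp before it had 23.0%, and 5 positions 1897 to 1973 bp inside had 44.3%. Columns at the outer pair spread from 7.14% to 56.3%, with as few as 32 calls in a column. The body had 58.6% in the lowest column, 62.4% in the median and 66.8% in the highest over 70 positions, and the 3' end ranged from 55.0% over a median of 65.9% to 71.7% over 23 positions.

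Abcc1 encodes the pump MRP1 and lies at chr16:14361453-14474878. Its strand is not given in the tables used, so that its ends are named by coordinate. The lower end had no position and the higher end a single one, with 241 calls and columns between 55.6% and 100%. Its body had 72.4% in the lowest column, 78.0% in the median and 80.8% in the highest, over 22 positions. Among them, position 14459344 was lowest at 30.3% and position 14429778 highest at 92.3%.

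The biotransformation genes included the lowest levels of all members, at positions close to gene starts. Gstp1 encodes a glutathione S-transferase of the pi class and lies at chr19:4035411-4037912 on the minus strand. All of its 24 positions lay between 24 bp before and 136 bp after the start, and their level was 0.089% in the lowest column, 1.02% in the median and 2.97% in the highest. The highest single position, 24 bp before the start, had 5.98%. Being under 4000 bp long, the gene has no body window. Its neighbour copy Gstp2 had 57.9% at the 5' end over 14 positions, with columns between 47.8% and 67.2%. These columns did not overlap those of Gstp1, but Gstp1 was read only close to its start. How far the Gstp2 positions lie from the Gstp2 start was not examined, so like stretches may not have been compared. Reads of such near-identical copies can be placed at the wrong one, and whether this occurred was not tested.

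Gsto1, an omega-class glutathione transferase whose human form reduces methylated arsenic species, lies at chr19:47854973-47864790 on the plus strand. Its 5' end had 21.4% in the lowest column, 24.1% in the median and 29.6% in the highest, over 61 positions, of which 44 were under 20%. This level joined 3 unlike stretches. From 742 to 253 bp before the start, 14 positions had 26.8%, with single positions between 6.57% and 56.4%. Between 206 bp before and 177 bp after the start, 38 positions had 0.899%, with columns between 0.348% and 2.82%. From 1843 to 1987 bp inside, 9 positions had 78.1%, with columns between 73.7% and 83.8%, and the body had 70.0% in the lowest column, 78.2% in the median and 82.2% in the highest.

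At the other end of Gsto1, the 3' window had 0.495% in the lowest column, 0.728% in the median and 2.03% in the highest, over 52 positions and 24964 calls. Only 1.41% of all protein-coding 3' ends were lower. All 52 positions lie inside Gsto2, the neighbouring omega-class gene that begins 648 bp beyond the end of Gsto1, and they are the positions of the 5' window of Gsto2. Upstream, 22 positions of Gsto1 lie in the long non-coding gene Gm30021.

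Pnp, the purine nucleoside phosphorylase that can take part in arsenate reduction, lies at chr14:50944303-50953412 on the plus strand. Its 5' end had 22.5% in the lowest column, 28.6% in the median and 32.9% in the highest over 25 positions, a level that joined opposite ones. Between 1442 and 1159 bp before the start, 4 positions had 74.7%, with columns between 70.5% and 83.8%. From 182 to 385 bp inside, 21 positions had 0.947%, with columns between 0% and 2.40%, and these also lie in the long non-coding gene Gm52117. Columns 8 and 9 had 73.5% and 73.3% at the 4 outer positions, and both were low at the 21 inner ones. Their levels of 24.1% and 32.9% in the whole window therefore differed mainly by how their calls divide between these stretches. The body rested on 3 positions, with 64.0% in the lowest column, 68.0% in the median and 83.7% in the highest.

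As3mt, the methyltransferase that turns arsenite into its methylated forms, lies at chr19:46707157-46741099 on the plus strand. No position was measured at its 5' end, and the closest one was 13103 bp from the start that its listed promoter gives, so the promoter of the main arsenic-methylating enzyme was not read in this table. In the body, 18 positions between 17811 and 18192 bp inside had 66.0% in the lowest column, 71.4% in the median and 77.7% in the highest. The 3' end, with 4 positions, ranged from 40.1% over a median of 57.9% to 67.1%.

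**Figure D3:**
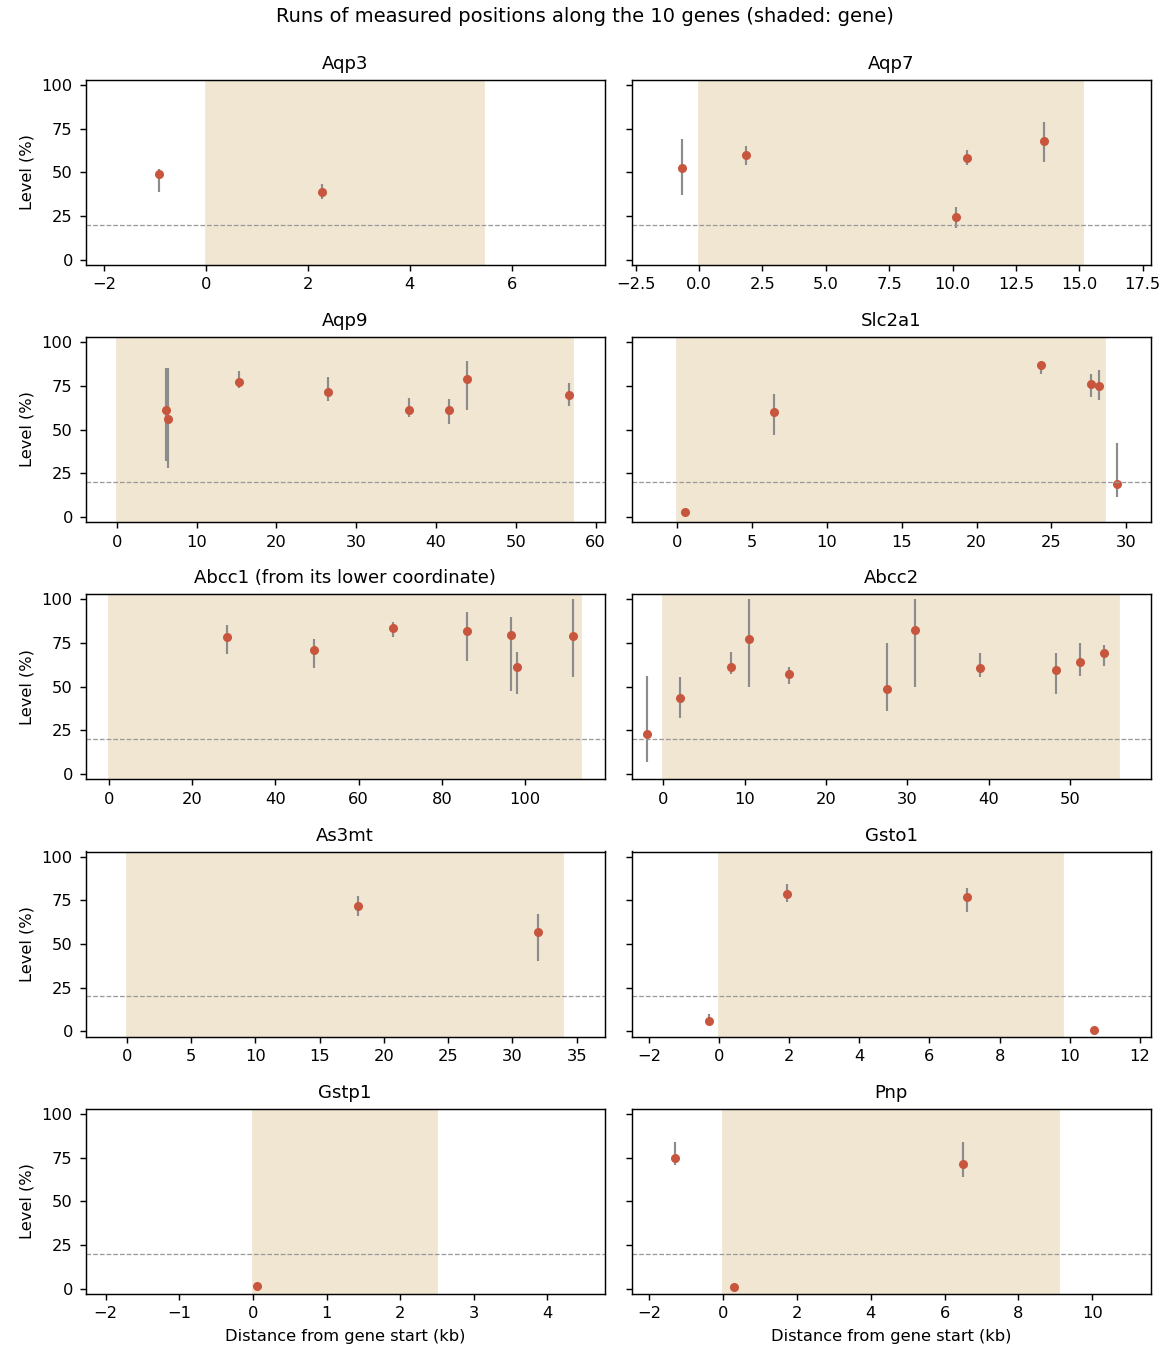
Methylation level (%) of groups of neighbouring positions along each member gene by distance (kb) from its start, or from its lower coordinate for Abcc1, with points for the level summed over columns, bars from the lowest to the highest column, shading for the gene and a dashed line at 20%. Points under 20% stand at the starts of Slc2a1, Gsto1, Gstp1 and Pnp and just beyond the ends of Gsto1 and Slc2a1, and long stretches of each gene hold no position.

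Among the 7 member 5' ends with positions, 2 were under 20%, those of Gstp1 and Slc2a1, where 73.8% of all 11663 protein-coding 5' ends were. Member 5' ends had a median of 27.2%, and all 5' ends one of 4.93%. Of the 6 member 3' ends, only that of Gsto1 was under 20%, against 14.3% of all 7162, with medians of 64.6% for the members and 61.0% for all. None of the 9 member bodies was under 20%, against 5.22% of all 13000, with medians of 71.3% for the members and 61.9% for all. With the ends of Abcc1 counted too, 3 of 14 member ends and 50.9% of all 23725 ends were under 20%. These counts are small, and they depend on the width of the window. Within 1000 bp of the start, Gsto1 had 5.85% and Pnp 0.947%. Then 5 of 9 member ends were under 20%, where 60.6% of all ends were, and within 500 bp 4 of 7, where 69.2% were. With both widths the 5' ends of Gstp1, Slc2a1, Gsto1 and Pnp were under 20%, and with 1000 bp also the 3' end of Gsto1. Of all 5' ends alone, 81.1% were under 20% with 1000 bp and 86.1% with 500 bp. Member 5' ends above 20% were Aqp3 (36.7%) and Aqp7 (52.4%) with 1000 bp, and Aqp7 (53.7%) with 500 bp.

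**Figure D4:**
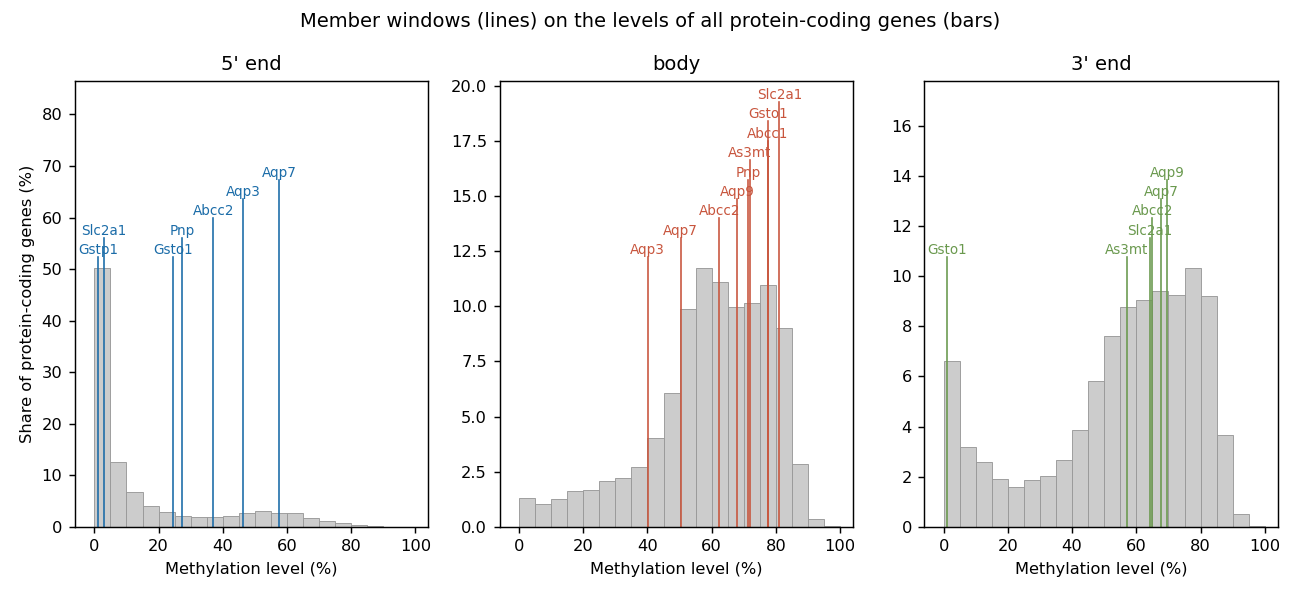
Methylation level (%) of member windows, as labelled lines, on the distribution of all protein-coding windows of the same kind, as bars in percent of genes. Lines for Gstp1 and Slc2a1 stand in the tall lowest bar of the 5' ends, and those of the other 5 genes lie above 20%.

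With windows of 2000 bp, the 5' end was less methylated than the body in 4 of the 6 members with both. The difference, 5' end minus body, was -78.1 points for Slc2a1, -53.0 points for Gsto1, -44.1 points for Pnp and -25.4 points for Abcc2, and in each of these the 5' end was lower in 10 of 10 columns. The sizes and their order depended on the window. With windows of 1000 bp the difference was -44.6 points for Slc2a1, -71.9 points for Gsto1 and -70.4 points for Pnp, and Abcc2 had no position at the 5' end. For Aqp3 and Aqp7 the sign depended on the processing. Their differences were 6.22 and 7.11 points with windows of 2000 bp, with the 5' end lower in 1 and in 2 of 10 columns. They were -2.21 and -2.43 points with windows of 1000 bp, and -1.07 and -2.73 points with each position weighted equally. Aqp3 also turned on the plus strand, at -9.94 points, and Aqp7 with windows of 500 bp, at -1.07 points. Across all 8492 genes with both windows, the median difference was -55.5 points, and the 5' end was lower in 90.2%.

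Of the 654 member positions, 274 (41.9%) were under 20%, and the share among all measured positions was not computed. Of the 274, 217 lay in 5' windows, with 125 in Slc2a1, 44 in Gsto1, 24 in Gstp1, 21 in Pnp and 3 in Aqp3. The other 57 lay in 3' windows, and none lay in a body. The Gsto1 3' window held 52 of the 57, which are the positions of the 5' window of Gsto2, and the Slc2a1 3' window held 5. Of the remaining positions, 294 had levels of 20 to 80% and 86 were above 80%.

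The CpG content of the promoters was set beside these levels as a description. In 300 bases there were 20 CG in Gstp1, 18 in Slc2a1, 16 in Gsto1 and 12 in Pnp, against a median of 14 in all protein-coding promoters. Aqp3 had 21, As3mt 9 and Abcc2 1, and the promoters of Aqp7 and Aqp9 had 0 to 4. Measured promoter positions had 1.34% in Slc2a1, 1.35% in Gsto1 and 1.08% in Gstp1. Among all genes, the median level of the 5' window was 48.8% with 0 to 4 CG in the promoter, 28.9% with 5 to 9, 5.19% with 10 to 19 and 2.31% with 20 or more. Aqp3, at 46.3%, fell in the last class, in which 90.8% of 5' windows were under 20%, but its value came from positions at least 708 bp from the start.

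**Figure D5:**
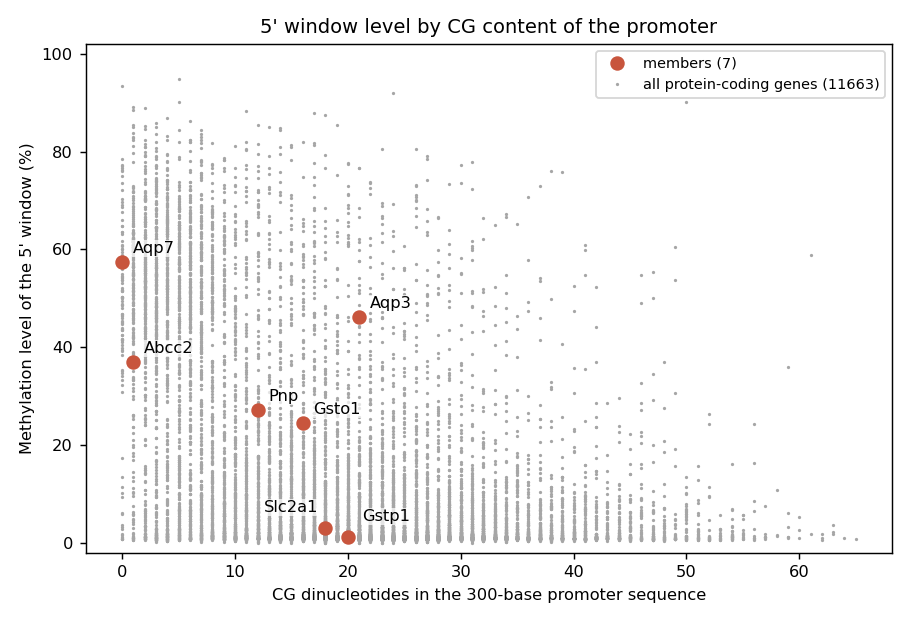
Methylation level (%) of the 5' window against the number of CG in the 300-base promoter, with members as labelled points and all 11663 protein-coding genes with measured 5' ends as grey dots. Gstp1 and Slc2a1 lie in the dense band near 0%, and Aqp3, with 21 CG, lies at 46.3%.

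Other genes of arsenic handling, a list of 44, had 14 of 27 measured 5' ends under 20%, 2 of 15 measured 3' ends and 2 of 32 measured bodies. Over all protein-coding genes the shares were 73.8% of 5' ends, 14.3% of 3' ends, 5.22% of bodies and 50.9% of all ends. Among 17 ends of further carriers, 7 were under 20%, from 1.01% at the 5' end of the phosphate carrier gene Slc20a1 and 1.98% at the 3' end of Slc34a3 to 66.5% at the 3' end of the glucose carrier gene Slc2a2 and 81.0% at the higher-coordinate end of Slc20a2. For further pumps, 3 of 10 ends were under 20%. The lowest were the 5' ends of Abcc4, at 0.575%, and Abcc5, at 12.9%, and the highest the 3' end of Abcb1b, at 66.9%, and the lower-coordinate end of Abcc3, at 69.2%. For further enzymes, 11 of 29 ends were under 20%. The lowest were the 5' ends of Txn1, which encodes thioredoxin, at 0.369%, and of the glycolytic gene Gapdh, at 0.884%. The highest were an end of the glutathione reductase gene Gsr, at 82.0%, and the 3' end of Txn2, at 84.7%. N6amt1, another methyltransferase gene linked to arsenic, had 26.9% at its 5' end, with columns between 22.8% and 32.2%.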

How the data were processed

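Embryo DNA, purified by phenol-chloroform extraction, went into bisulfite libraries of the reduced representation kind, per the labels' protocols. Trim Galore, Bismark, methylKit and the build mm10 are named, per the submitters' processing notes, without versions or settings. The authors deposited 1 table of raw counts, per the file headers, with coverage, methylated and unmethylated calls for each column and cytosine. As tested on the table, no position had under 10 reads in any column, so positions missed by any library are not seen, and strands are listed apart. Of 2137826 rows, 4 repeated a position and were left out.

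The 10 columns match no sample title alone, so 0 were tied to a sample. The planned permutation and logistic tests of arsenic against control were not run, and the values describe the columns without a test. Gene ends came from RefSeq tables for GRCm38, which mm10 corresponds to. Strand was taken from the promoter table. Exons and introns were not used here. In genes under 4000 bp a position went to the nearer end. Groups of neighbouring positions (gaps up to 300 bp) and further divisions were set after levels were seen. The members and lists were chosen with earlier results of these data known. All 10 members are named, with the highest and lowest ends of the other list. Of single positions, the highest and lowest of a window were to be named, with any whose columns spread over more than 40 points. There were 94 such positions. The 67 with a column under 20 calls are given as a count, and the other 27 as a count by gene with the widest of each gene, which departs from that plan. Wilson intervals at 95% were computed for each window, and cover counting error only, since calls on the same read are not independent. For the Slc2a1 5' end the interval is 2.84% to 3.14%, for the Abcc1 higher end 73.2% to 83.5%.

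Python 3.11.15 with numpy 2.4.6, pandas 2.3.3, scipy 1.17.1 and matplotlib 3.10.9 was used, and the window sums were tested on simulated data. Alternatives covered window width, coverage minimum, the most covered positions, weighting, number of positions, strand and each column left out.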

Additional observations from a re-analysis of the deposited data

Results flagged for a closer look

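In 1 of 23 member windows, a column stood apart from the others. At the 5' end of Aqp3, column 7 had 36.1%, while the other columns lay between 44.9% and 49.9%. Its gap to the nearest column was 0.636 of the whole range, above the limit of 0.466 for 10 values (Dixon's criterion), which chance passes in about 1 of 20 windows. Column 7 was also the lowest column in 7 of the 23 member windows, more than any other column, and the highest in 2. It had the lowest mean autosomal level of the 10 columns, 40.1%. Columns 8 and 6 had nearly the same mean, 40.1% and 40.2%, and were lowest in 3 and 4 member windows. Which sample column 7 holds is not known.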

How the results depend on the processing

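The count of ends under 20%, 3 as reported, became 5 with windows of 1000 bp (of 9 ends) and 5 with each position weighted equally (of 14 ends), in both because Pnp and Gsto1 at the 5' end crossed 20%. The median of the ends, 51.6%, moved to 5.85% with 1000 bp (9 ends), 1.52% with 500 bp (7 ends), 44.3% with at least 20 reads (10 ends), 48.3% with equal weights, 46.3% with at least 3 positions (13 ends), 42.3% on the plus strand and 48.2% on the minus strand. The median of the bodies, 71.3%, moved to 68.0% with 1000 bp, 69.0% with 500 bp and 67.9% on the plus strand. The 5' end minus body difference changed sign for Aqp3 and Aqp7 with 1000 bp and equal weights, for Aqp3 on the plus strand and for Aqp7 with 500 bp. Narrow windows hold fewer ends, and for the other moves the cause was not tested. Leaving out each column in turn moved no window by more than 2.56 points, and leaving out columns 9 and 10 together, chosen after seeing the data, by no more than 2.29 points. No paired analysis was possible because the columns carry no sample. Windows with few calls are least precise, such as the higher end of Abcc1, with 10 calls in its thinnest column.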

Other observations

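Tissues that may come along in dissection were read through marker genes with the same windows, at the ends with positions. For trophoblast genes, 6 of 11 ends were under 20%, with levels from 1.78% at the 5' end of Cdx2 to 75.4% at the 3' end of Elf5. For visceral endoderm genes it was 2 of 8, from 8.16% at the 3' end of Amn to 66.7% at the 3' end of Hnf4a. For genes of decidua it was 7 of 9, between 1.21% and 48.9%, and for blood genes 2 of 8, between 4.67% and 75.7%. Of all protein-coding ends, 50.9% were under 20%. Methylation at an end is no measure of expression, and the share of each tissue in these libraries was not tested.

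Beyond the end of Slc2a1, where 7 positions had 18.7% together, column 5 had 42.5% and the next highest column 22.5%, while the lowest had 11.3%. A column held as few as 146 calls there, and single positions lay between 6.34% and 36.2%. The stretch was singled out after its values were seen. Within Abcc1, the pair of positions 96465 and 96496 bp from its lower coordinate had 47.4% in column 7 and between 77.3% and 90.0% in the other columns, with as few as 29 calls in a column.

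Of the 654 member positions, 27 had columns that spread over more than 40 points, with at least 20 calls in each column. The share of all measured positions that pass these limits was not computed. The thinnest column of each held 20 to 50 calls, and how much of the spread is counting error was not tested. Of the 27, 9 lay in Abcc2, 6 in Aqp3, 6 in Aqp9, 5 in Slc2a1 and 1 in Gsto1. The widest of each gene were position 43830569 in the body of Abcc2, with 14.5% in the lowest column, 59.7% in the median and 87.7% in the highest, and position 119138139 beyond the end of Slc2a1, with 7.69%, 35.3% and 71.4%. Position 41096170 in the body of Aqp3 ranged from 22.1% to 77.8%, position 71110957 at the 3' end of Aqp9 from 32.8% to 81.8%, and position 47862148 in the body of Gsto1 from 52.9% to 100%.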
